A study of Musculus with 2 samples.

Results

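The genes described here are 10 of the 32285 listed in the matrices, the effector genes of cytotoxic lymphocytes: the granule genes Gzma, Gzmb, Gzmc, Prf1 and Nkg7, the transcription factor genes Eomes and Tbx21, and the genes of secreted signals Ifng, Ccl5 and Xcl1. They were chosen by name and read as raw UMIs (unique molecular identifiers, each a counted RNA molecule) in cells gated on other genes. NK-gated cells had no UMI of Cd3d, Cd3e or Cd3g, the chains of the T cell receptor complex, and at least 1 UMI of the natural killer receptor genes Klre1 or Ncr1. T-gated cells had 2 or more UMIs of the Cd3 genes together. By these gates there were 79 NK-gated and 200 T-gated cells among 10576 kept cells of the LPCAT3-AKO library, and 123 NK-gated and 142 T-gated cells among 11191 kept cells of the control library.

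The cells came from the stromal vascular fraction of mouse subcutaneous white adipose tissue (sWAT), which is what is left of digested fat once the mature adipocytes are spun off, and their RNA was sequenced cell by cell on the 10x Genomics platform. One library was labelled LPCAT3-AKO (genotype LPCAT3 knockout) and one control (genotype WT). The protocol in the labels gives 5 weeks of age for both, whereas the series text speaks of mice aged 2 months on a diet abbreviated CD. The series is about phosphatidylcholine remodelling in fat and insulin sensitivity. The sources used here give neither the number of mice behind a library, nor the promoter that drives the deletion, nor the exons it removes. Lpcat3 itself, the acyltransferase gene named in the genotype, had 30.6 CPM (95% interval 29.5 to 31.7) over all kept cells of the LPCAT3-AKO library and 26.7 CPM (25.7 to 27.8) over those of the control library. In NK-gated cells it had 9 UMIs in LPCAT3-AKO and 15 in control, and in T-gated cells 43 in LPCAT3-AKO and 18 in control. The labelled knockout was thus not visible as a lower Lpcat3 level over all kept cells. In each gate the intervals of the libraries overlapped. Since the deleted part is not known, these levels do not check the label. With 1 library per genotype there is no replicate, no test was possible and no p-value is given. Genotype, animal and preparation cannot be told apart.

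Cytotoxic lymphocytes kill by releasing granules onto a target cell. Perforin (Prf1) opens the way through the membrane, and granzymes (Gzma, Gzmb, Gzmc), which are serine proteases, start cell death or inflammation inside. Natural killer cells carry this machinery ready-made under the T-box factors EOMES and T-BET (Tbx21), while CD8 T cells build it up after activation. Both also secrete interferon-gamma (Ifng), which activates macrophages, and the chemokines CCL5 and XCL1, which draw in other leukocytes and cross-presenting dendritic cells. In adipose tissue, NK cells and T cells are known as sources of interferon-gamma that act on resident macrophages.

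The libraries held 119355147 UMIs in 12806 barcodes (LPCAT3-AKO) and 111669076 UMIs in 13831 barcodes (control), and kept cells had medians of 8600 UMIs in LPCAT3-AKO and 8078 in control. NK-gated cells were shallower, with a median of 3553 UMIs in the LPCAT3-AKO library and 2846 in the control library, as were T-gated cells with 3362 UMIs in LPCAT3-AKO and 3296 in control. Values in CPM are UMIs of a gene per 1000000 UMIs summed over the gated cells of a library. The sums were 549781 UMIs (LPCAT3-AKO) and 707603 UMIs (control) for NK-gated cells, and 1286431 UMIs (LPCAT3-AKO) and 732387 UMIs (control) for T-gated cells. The libraries shared 58 barcode sequences, of which 2 belonged to a gated cell in either library and 0 in both. Intervals are exact 95% intervals for counting error only.

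The gates were checked against the other markers of each type. All 9 NK markers were detected in NK-gated cells of both libraries, at 3736 CPM summed over the list in LPCAT3-AKO and 3823 CPM in control. T-gated cells showed all 12 T cell markers, at 2403 CPM (LPCAT3-AKO) and 3149 CPM (control). Markers of adipose stem and progenitor cells (ASPC) were also present. All 6 were detected in NK-gated cells, at a summed 6059 CPM in LPCAT3-AKO and 9283 CPM in control, and all 6 in T-gated cells, at 4806 CPM in LPCAT3-AKO and 2613 CPM in control. Macrophage markers, again 6 of 6, summed to 2521 CPM (LPCAT3-AKO) and 2183 CPM (control) in NK-gated cells and to 2407 CPM (LPCAT3-AKO) and 3057 CPM (control) in T-gated cells. Epithelial markers, with Krt14 and Krt5 at 0 in both gates, summed to 1455 CPM in LPCAT3-AKO and 924 CPM in control NK-gated cells. In T-gated cells they summed to 798 CPM in LPCAT3-AKO and 17.8 CPM in control.

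Gated cells with most markers of another type, called mixed cells here, made up 20 of 79 NK-gated cells in LPCAT3-AKO and 34 of 123 in control, and carried 59.2% (LPCAT3-AKO) and 61.7% (control) of the UMIs of that gate. In the T gate they were 40 of 200 cells in LPCAT3-AKO and 22 of 142 in control, with 53.0% (LPCAT3-AKO) and 37.6% (control) of the UMIs. No UMI of any member was seen in 10 of the 20 mixed NK-gated cells of LPCAT3-AKO and in 25 of the 34 of control, but in only 2 of 59 unmixed ones of LPCAT3-AKO and 2 of 89 of control. Most mixed NK-gated cells entered the gate on 1 UMI of Klre1 or Ncr1 (15 of 20 in LPCAT3-AKO, 29 of 34 in control), against 10 of 59 (LPCAT3-AKO) and 21 of 89 (control) unmixed ones. Values without mixed cells are given for the members over each whole gate and for listed genes whose call they change. For subsets of T-gated cells they are not given.

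NK-gated cells made up 0.747% (0.592 to 0.930) of kept cells in the LPCAT3-AKO library and 1.10% (0.914 to 1.31) in the control library, a ratio of 0.680 (0.506 to 0.909). T-gated cells made up 1.89% (1.64 to 2.17) in LPCAT3-AKO and 1.27% (1.07 to 1.49) in control, a ratio of 1.49 (1.20 to 1.86). Without mixed cells the ratios were 0.702 (0.496 to 0.986) for NK-gated cells (59 in LPCAT3-AKO, 89 in control) and 1.41 (1.11 to 1.80) for T-gated cells (160 in LPCAT3-AKO, 120 in control). With at least 2 UMIs of Klre1 and Ncr1 together, the NK share no longer differed beyond counting error, with 54 cells in LPCAT3-AKO and 73 in control (ratio 0.783, 0.540 to 1.13).

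The effector genes were nearly confined to the gated lymphocytes. NK-gated and T-gated cells held 89.2% of the Gzma UMIs of the LPCAT3-AKO library and 92.7% of those of the control library, although they were a small part of the cells. For Gzmb the share was 92.0% in LPCAT3-AKO and 89.7% in control, and for Nkg7 88.1% in LPCAT3-AKO and 91.8% in control. Prf1, Xcl1, Eomes and Ifng had 77.4% to 85.8% of their UMIs in the gates in LPCAT3-AKO and 82.6% to 87.1% in control. Tbx21 had 69.4% in LPCAT3-AKO and 77.9% in control. Some of the remainder lay in cells with exactly 1 Cd3 UMI, which enter neither gate. Those of them that fell in no named type (16 cells in LPCAT3-AKO, 13 in control) had 571 CPM (LPCAT3-AKO) and 399 CPM (control) of Nkg7.

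**Figure D1:**
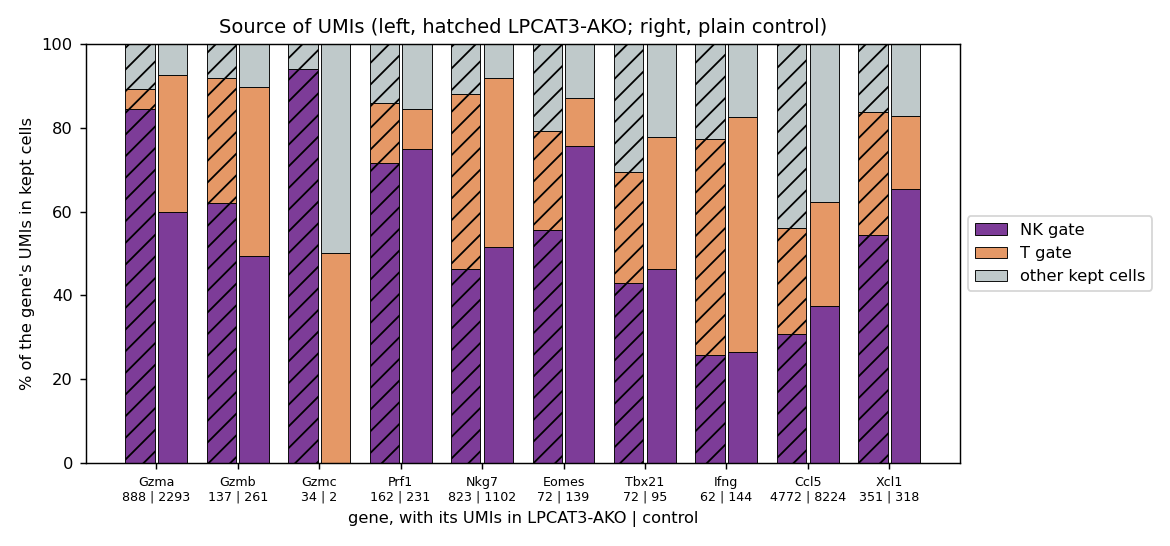
Share of each effector gene's UMIs (%, vertical axis from 0) that lay in NK-gated cells, T-gated cells or other kept cells, with the LPCAT3-AKO library as the left, hatched bar and the control library as the right, plain bar. The total UMIs of the gene stand under its name; Ccl5 had the largest grey part among genes with more than 50 UMIs, 43.9% in LPCAT3-AKO and 37.8% in control.

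Cells that should lack these genes set the background. ASPC-like cells, the fibroblast-like precursors, had a median of 9219 UMIs in LPCAT3-AKO and 9511 in control and so were sampled more deeply than lymphocytes. A Gzma UMI was seen in 0.198% of 5553 ASPC-like cells in LPCAT3-AKO and 0.576% of 5383 in control, against 59.5% of LPCAT3-AKO and 68.3% of control NK-gated cells. For the other members the share of ASPC-like cells with a UMI was 0 to 0.180% in LPCAT3-AKO and 0 to 0.167% in control, except for Ccl5 with 0.702% in LPCAT3-AKO and 1.89% in control. Levels in ASPC-like cells stayed at or below 0.662 CPM for every member but Ccl5 (1.47 CPM in LPCAT3-AKO, 2.18 CPM in control).

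Ccl5 departed most from this confinement. Ccl5 had 56.1% of its UMIs in the gates in LPCAT3-AKO and 62.2% in control. Dendritic-like cells had 420 CPM (LPCAT3-AKO) and 435 CPM (control) of Ccl5, and macrophage/monocyte-like cells 10.4 CPM in LPCAT3-AKO and 17.8 CPM in control. Of the Ccl5 UMIs outside the gates, 66.1% in LPCAT3-AKO and 66.1% in control lay in cells that also had a UMI of Ccr7, the receptor of migrating dendritic cells and naive T cells. Those were 254 cells in LPCAT3-AKO and 302 in control, with 532 CPM in LPCAT3-AKO and 809 CPM in control of Ccl5. The other 10043 (LPCAT3-AKO) and 10624 (control) cells outside the gates had 7.37 CPM in LPCAT3-AKO and 11.9 CPM in control. Within dendritic-like cells, Ccl5 reached 787 CPM (LPCAT3-AKO) and 781 CPM (control) where Ccr7 was detected, against 20.6 CPM in LPCAT3-AKO and 35.4 CPM in control where it was not. Cells with Ccr7 that fell in no named type had more, 1904 CPM in LPCAT3-AKO (45 cells) and 2649 CPM in control (77 cells), and held 29.9% of the Ccl5 UMIs outside the gates in LPCAT3-AKO and 38.5% in control. Ccr7-detected dendritic-like cells held 33.7% of them in LPCAT3-AKO and 22.97% in control. Few cells carried the dendritic-like signal: in LPCAT3-AKO 5 cells held 88.9% of the Ccl5 UMIs of Ccr7-detected dendritic-like cells, and in control 80.3%. Nkg7 was seen in mast/basophil-like cells, at 40.4 CPM in LPCAT3-AKO (4 UMIs in 3 of 48 cells) and 59.4 CPM in control (6 UMIs in 6 of 55 cells). A Tbx21 UMI was seen in 2.53% of LPCAT3-AKO and 1.82% of control dendritic-like cells (5 UMIs in LPCAT3-AKO, 6 in control). Gzmc had 2 UMIs in macrophage/monocyte-like cells of LPCAT3-AKO, and 1 UMI in an ILC2-like cell of control.

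**Figure D2:**
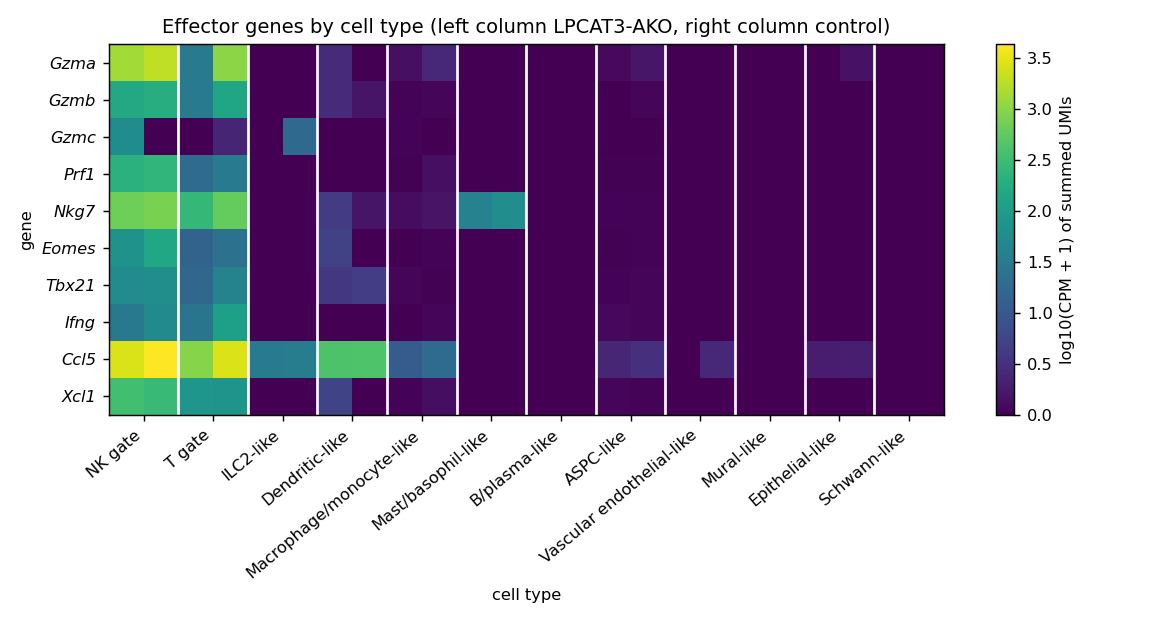
Levels of the 10 effector genes as log10(CPM + 1) of summed UMIs (colour) in 12 cell types, with the LPCAT3-AKO library as the left column and the control library as the right column of each pair. The bright columns are the NK and T gates; outside them Ccl5 in dendritic-like cells (420 CPM in LPCAT3-AKO, 435 CPM in control) and Nkg7 in mast/basophil-like cells stand out, and the ILC2-like Gzmc square is 1 UMI in the control library.

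In NK-gated cells 3 of the 10 members, Eomes, Ifng and Ccl5, were lower in LPCAT3-AKO. The granule genes Gzma, Gzmb, Prf1 and Nkg7 did not pass over all cells of the gate, whereas Gzma passed without mixed cells and all 4 in a stricter gate. The stricter gate asks for more UMIs of the NK receptor genes but still holds mixed cells. A gene was counted as higher or lower when its CPM reached 20 in at least 1 of the libraries, its levels differed by a factor of 1.5 or more, and the interval of the ratio excluded 1. By this size rule 3 members were lower and 1, Gzmc, was higher. Of all 7306 genes at that level in NK-gated cells, 9.17% were lower and 5.47% higher. The median log2 ratio of LPCAT3-AKO over control, with 1 CPM added to each level, was -0.23 over the members and -0.01 over all genes tested.

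Gzma, the tryptase granzyme and the most abundant granule gene of the 10, had 751 UMIs or 1366 CPM (1270 to 1467) in LPCAT3-AKO and 1372 UMIs or 1939 CPM (1838 to 2044) in control. It was seen in 47 of 79 cells of LPCAT3-AKO and 84 of 123 of control. The ratio of 0.705 (0.644 to 0.771) fell short of the size rule. Without mixed cells Gzma had 3094 CPM in LPCAT3-AKO and 4814 CPM in control, and the ratio of 0.643 (0.585 to 0.705) passed it. Without mixed cells 4 members were thus lower and 1 higher, against 3.58% and 3.39% of 6557 genes.

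Gzmb, the granzyme that cleaves caspases, had 155 CPM (123 to 191) in LPCAT3-AKO and 182 CPM (152 to 217) in control, in 28 of 79 LPCAT3-AKO and 42 of 123 control cells. Prf1 had 211 CPM (174 to 253) in LPCAT3-AKO and 244 CPM (209 to 284) in control. Nkg7, a granule membrane protein needed for degranulation, had 693 CPM (625 to 766) in LPCAT3-AKO and 804 CPM (739 to 873) in control. None of these 3 passed the size rule, with ratios of 0.848, 0.863 and 0.862, and without mixed cells the ratios were 0.677 (0.497 to 0.916), 0.771 (0.598 to 0.989) and 0.755 (0.658 to 0.865), again short of it. In the gate that asks for 2 UMIs of Klre1 and Ncr1 all 3 were lower, at 214 CPM in LPCAT3-AKO and 385 CPM in control for Gzmb, 289 CPM in LPCAT3-AKO and 498 CPM in control for Prf1, and 1046 CPM in LPCAT3-AKO and 1608 CPM in control for Nkg7. In that gate, which is not the one defined above, 6 members were lower and 1 higher, against 8.84% and 7.18% of 7106 genes. It still held mixed cells, whose UMIs count in the CPM. Its 54 LPCAT3-AKO cells had 318295 UMIs in all (median 2984) and its 73 control cells 301030 (median 2685). The stricter gate without mixed cells was not tested.

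Gzmc, a granzyme known from strongly activated killer cells, was a matter of a single cell. LPCAT3-AKO NK-gated cells had 32 Gzmc UMIs in 3 cells and control cells had 0, which against a floor of 3 UMIs in the control gate would be at least 13.7-fold higher. One LPCAT3-AKO cell held 30 of the 32 UMIs. That cell had 5345 UMIs in all, 5 of Klre1 and Ncr1, 11 of Gzme, the neighbouring family member that was seen in no control NK-gated cell, 6 of Xcl1 and 19 of Ccl5, but 0 of Gzma, Prf1 and Eomes. Without it the level was 3.67 CPM in LPCAT3-AKO, below the size rule. Gzmc belongs to a cluster of closely similar granzyme genes, so reads of one may have been counted for another and its level is uncertain.

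Of the T-box factor genes, Eomes passed the size rule and Tbx21 did not. Eomes, which marks mature circulating NK cells, had 40 UMIs or 72.8 CPM (52.0 to 99.1) in LPCAT3-AKO and 105 UMIs or 148 CPM (121 to 180) in control, a log2 ratio of -1.02 (ratio 0.490, 0.332 to 0.712). It was seen in 24 of 79 cells (30.4%) of LPCAT3-AKO and 55 of 123 (44.7%) of control. Without mixed cells it had 165 CPM in LPCAT3-AKO and 355 CPM in control. When each cell was thinned to 2000 UMIs, Eomes was seen in 21.6% (12.9 to 32.7) of 74 LPCAT3-AKO cells and 29.6% (21.2 to 39.2) of 108 control cells, intervals that overlap. In a separate draw of 2000 UMIs per cell the log2 ratio of Eomes was -0.22 and the call was lost. Tbx21, the factor shared by NK cells and tissue-bound innate lymphocytes, had 56.4 CPM (38.3 to 80.0) in LPCAT3-AKO and 62.2 CPM (45.2 to 83.5) in control, with a ratio of 0.907 (0.554 to 1.47). Without mixed cells it had 125 CPM in LPCAT3-AKO and 163 CPM in control. Whether the Eomes and Tbx21 ratios differ from each other was not tested.

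Among the secreted signals, Ccl5 was the most abundant gene of the 10 and was lower in LPCAT3-AKO. It had 1473 UMIs or 2679 CPM (2544 to 2820) in LPCAT3-AKO and 3087 UMIs or 4363 CPM (4210 to 4519) in control, a log2 ratio of -0.70 (ratio 0.614, 0.577 to 0.654). The difference lay in the amount per cell. A Ccl5 UMI was seen in 66 of 79 cells (83.5%) of LPCAT3-AKO and 93 of 123 (75.6%) of control, but cells with Ccl5 held on average 22.3 UMIs of it in LPCAT3-AKO and 33.2 in control. Without mixed cells Ccl5 had 5947 CPM in LPCAT3-AKO and 10888 CPM in control.

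Ifng had 16 UMIs or 29.1 CPM (16.6 to 47.3) in LPCAT3-AKO and 38 UMIs or 53.7 CPM (38.0 to 73.7) in control, a ratio of 0.542 (0.282 to 0.995) that barely passed the size rule. Only 12 cells of LPCAT3-AKO and 23 of control had an Ifng UMI, and leaving out the 1 control cell with the most (3 UMIs) ended the call (ratio 0.585, 0.303 to 1.09). Without mixed cells Ifng had 53.5 CPM in LPCAT3-AKO and 122 CPM in control and passed. Xcl1, the ligand of the dendritic cell receptor XCR1, was not lower. It had 347 CPM (300 to 400) in LPCAT3-AKO and 294 CPM (255 to 337) in control, and was seen in 45 of 79 cells (57.0%) of LPCAT3-AKO and 51 of 123 (41.5%) of control. At 2000 UMIs per cell those shares were 41.9% (30.5 to 53.9) in LPCAT3-AKO and 35.2% (26.2 to 44.96) in control, and without mixed cells the levels were 762 CPM in LPCAT3-AKO and 743 CPM in control.

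**Figure D3:**
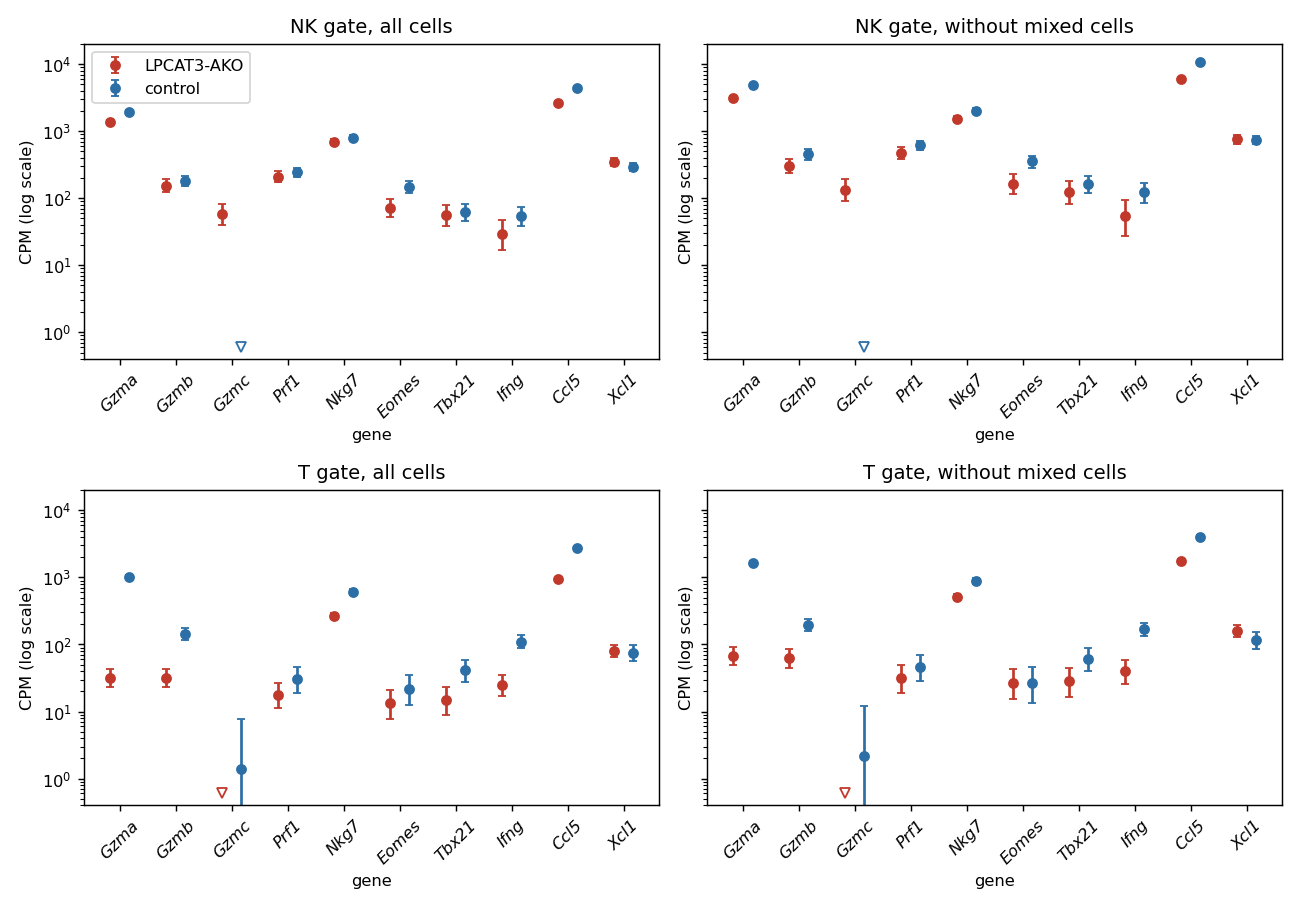
Levels of the 10 effector genes in CPM (log scale) with exact 95% Poisson intervals, in NK-gated cells (top) and T-gated cells (bottom), over all cells (left) and without mixed cells (right), LPCAT3-AKO in red to the left of control in blue. Open triangles mark 0 UMIs; Gzma in T-gated cells shows the widest gap, 31.9 CPM in LPCAT3-AKO against 1028 CPM in control.

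Over all NK-gated cells, mixed ones included, Prf1, Ccl5 and Eomes were seen more often in cells with Gzma than in those without. Each cell was thinned to 2000 UMIs for this count, which kept 74 of 79 LPCAT3-AKO and 108 of 123 control cells. Mixed cells were included, and before thinning they were 15 of 32 cells without Gzma in LPCAT3-AKO and 29 of 39 in control. Of all mixed NK-gated cells, 10 of 20 in LPCAT3-AKO and 25 of 34 in control had no member at all. The contrasts below were not counted without mixed cells, and how much of them comes from mixed cells was not tested. Among unmixed cells, unthinned, Gzma was seen in 71.2% in LPCAT3-AKO and 88.8% in control. Ccl5 was seen in more of them, 94.9% in LPCAT3-AKO and 95.5% in control, and so also in unmixed cells without Gzma. Prf1 was seen in 64.4% of unmixed cells in LPCAT3-AKO and 67.4% in control, and Eomes in 37.3% in LPCAT3-AKO and 56.2% in control. Prf1 was seen in 27 of 38 LPCAT3-AKO cells with Gzma and 2 of 36 without it, and in 42 of 70 control cells with Gzma and 2 of 38 without it. Ccl5 was seen in 38 of 38 LPCAT3-AKO cells with Gzma and 17 of 36 without, and in 69 of 70 control cells with Gzma and 9 of 38 without. Eomes was seen in 14 of 38 LPCAT3-AKO cells with Gzma and 2 of 36 without, and in 32 of 70 control cells with Gzma and 0 of 38 without. Not every pair went this way. In LPCAT3-AKO, Eomes was seen in 0 of 7 cells with Ifng and 16 of 67 without, whereas in control it was seen in 4 of 14 with Ifng and 28 of 94 without. Prf1 was seen in 3 of 12 LPCAT3-AKO cells with Tbx21 and 26 of 62 without, and in 10 of 25 control cells with Tbx21 and 34 of 83 without.

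Xcl1 was distributed otherwise. In LPCAT3-AKO it was seen in 16 of 38 cells with Gzma and 15 of 36 cells without, whereas in control it was seen in 32 of 70 cells with Gzma and 6 of 38 cells without. The Gzma-negative cells of control were mostly mixed, 29 of 39 before thinning, against 15 of 32 in LPCAT3-AKO. Their medians were 6266 UMIs in LPCAT3-AKO and 8461 UMIs in control, above those of cells with Gzma, 2716 UMIs in LPCAT3-AKO and 2628 in control.

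Unmixed NK-gated cells without a Gzma UMI numbered 17 of 59 in LPCAT3-AKO and 10 of 89 in control. In these cells Xcl1 had 945 CPM in LPCAT3-AKO and 949 CPM in control. Over all unmixed NK-gated cells it had 762 CPM in LPCAT3-AKO and 743 CPM in control. Il7r, the receptor for the lymphoid growth factor IL-7, had 202 CPM in LPCAT3-AKO and 214 CPM in control, on few UMIs in control. Eomes had 11.2 CPM in LPCAT3-AKO and 30.6 CPM in control, from 1 UMI in each library. Itga1, the CD49a integrin of tissue-resident cells, had 157 CPM in these cells of LPCAT3-AKO and 0 UMIs in those of control, where 32671 UMIs in all leave 3 UMIs as the floor. The 42 LPCAT3-AKO and 79 control unmixed cells with Gzma had 0 Il7r UMIs in LPCAT3-AKO and 21.0 CPM in control, and Prf1 levels of 753 CPM in LPCAT3-AKO and 668 CPM in control. In those cells, which were chosen by Gzma, Gzma had 5126 CPM in LPCAT3-AKO and 5475 CPM in control, Ccl5 8013 CPM in LPCAT3-AKO and 11966 CPM in control, and Eomes 266 CPM in LPCAT3-AKO and 399 CPM in control.

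**Figure D4:**
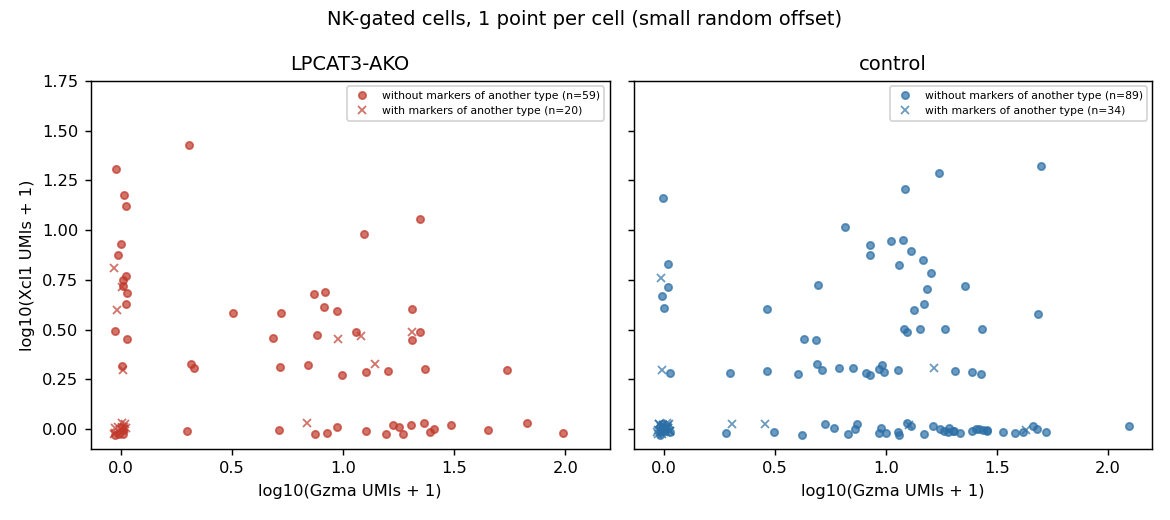
Gzma against Xcl1 UMIs in each NK-gated cell, both as log10(UMIs + 1), for LPCAT3-AKO (left) and control (right), with dots for cells without and crosses for cells with markers of another type. Points on the left edge have no Gzma; unmixed ones number 17 of 59 in LPCAT3-AKO and 10 of 89 in control, and several have high Xcl1.

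T-gated cells of LPCAT3-AKO had lower levels of 6 of the 10 members, Gzma, Gzmb, Nkg7, Tbx21, Ifng and Ccl5, and no member was higher. Among the 6659 genes that reached 20 CPM in that gate, 6.55% were lower and 8.54% higher. The median log2 ratio was -1.41 over the 9 members at that level and -0.01 over all genes tested. Without mixed cells the same 6 members were lower and 0 higher, against 5.02% and 3.58% of 6092 genes. With a stricter T gate, which asks for 3 Cd3 UMIs and leaves out cells with Klre1 or Ncr1, 6 members were lower and 0 higher, against 6.33% and 7.75% of 6655 genes. In the stricter gate Tbx21 no longer passed and Xcl1 did, with 18.2 CPM in LPCAT3-AKO and 40.7 CPM in control.

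Gzma had 41 UMIs or 31.9 CPM (22.9 to 43.2) in LPCAT3-AKO T-gated cells and 753 UMIs or 1028 CPM (956 to 1104) in control ones, a log2 ratio of -4.97. Few cells lay behind it, with Gzma seen in 9 of 200 cells (4.50%) of LPCAT3-AKO and 11 of 142 (7.75%) of control. The LPCAT3-AKO cells with Gzma held on average 4.56 UMIs of it, whereas those of control held 68.5. One control cell had 288 of the 753 UMIs. That cell had 26 Cd3 UMIs, 18 of Klre1 and Ncr1, 16 of the proliferation gene Mki67 and 11076 UMIs in all. Without it control had 645 CPM and the ratio was 0.0494 (0.0350 to 0.0681). Without mixed cells Gzma had 67.8 CPM in LPCAT3-AKO and 1649 CPM in control, a log2 ratio of -4.58. The size of the difference depended on the cells counted. In the stricter gate, without cells with Klre1 or Ncr1, Gzma had 17.2 CPM in LPCAT3-AKO and 76.2 CPM in control, a log2 ratio of -2.08. The log2 ratio was -3.75 in thinned cells and -3.78 for the mean of per-cell CPM. The counting intervals of the shares of T-gated cells with Gzma overlapped (2.08% to 8.37% in LPCAT3-AKO, 3.93% to 13.4% in control).

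Gzmb had 41 UMIs or 31.9 CPM (22.9 to 43.2) in LPCAT3-AKO and 105 UMIs or 143 CPM (117 to 174) in control, in 12 of 200 LPCAT3-AKO and 22 of 142 control cells. Its ratio was 0.222 (0.151 to 0.322). One LPCAT3-AKO cell held 19 of the 41 UMIs. Without mixed cells Gzmb had 62.8 CPM in LPCAT3-AKO and 197 CPM in control (ratio 0.319, 0.212 to 0.471). Nkg7, present in many more T cells, had 267 CPM (240 to 297) in LPCAT3-AKO and 605 CPM (550 to 664) in control, in 99 of 200 cells (49.5%) of LPCAT3-AKO and 87 of 142 (61.3%) of control. Its ratio was 0.442 (0.383 to 0.510) over all cells and 0.579 (0.498 to 0.674) without mixed cells. Nkg7 lost its call in thinned cells, with a log2 ratio of -0.53, and for the mean of per-cell CPM, also -0.53, against -1.17 over the summed UMIs. Prf1 had 23 UMIs in LPCAT3-AKO and 22 in control, a ratio of 0.595 (0.317 to 1.12) that did not pass, and Gzmc had 0 UMIs in LPCAT3-AKO and 1 in control.

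Ccl5 had 1206 UMIs or 937 CPM (885 to 992) in LPCAT3-AKO T-gated cells and 2028 UMIs or 2769 CPM (2650 to 2892) in control ones, a log2 ratio of -1.56. Both the share of cells with Ccl5 (64 of 200, 32.0%, in LPCAT3-AKO and 75 of 142, 52.8%, in control) and the UMIs per such cell (18.8 in LPCAT3-AKO and 27.0 in control) were lower. At 2000 UMIs per cell a Ccl5 UMI was seen in 54 of 187 LPCAT3-AKO cells (22.5% to 35.9%) and 66 of 132 control cells (41.2% to 58.8%). Without mixed cells Ccl5 had 1768 CPM in LPCAT3-AKO and 4035 CPM in control. Ifng had 32 UMIs or 24.9 CPM (17.0 to 35.1) in LPCAT3-AKO and 81 UMIs or 111 CPM (87.8 to 137) in control, a log2 ratio of -2.11. It was seen in 21 of 200 cells (10.5%) of LPCAT3-AKO and 32 of 142 (22.5%) of control. At 2000 UMIs per cell these shares were 4.81% (2.22 to 8.94) in LPCAT3-AKO and 14.4% (8.89 to 21.6) in control. Without mixed cells Ifng had 39.7 CPM in LPCAT3-AKO and 169 CPM in control. Tbx21 had 14.8 CPM (8.89 to 23.1) in LPCAT3-AKO and 41.0 CPM (27.6 to 58.5) in control, and without mixed cells 28.1 CPM in LPCAT3-AKO and 61.3 CPM in control.

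Eomes and Xcl1 did not pass the size rule in T-gated cells. Eomes had 17 UMIs in LPCAT3-AKO and 16 in control (ratio 0.605, 0.287 to 1.28), and without mixed cells had 26.5 CPM in LPCAT3-AKO and 26.3 CPM in control. Xcl1 had 80.1 CPM (65.4 to 97.1) in LPCAT3-AKO and 75.1 CPM (56.6 to 97.7) in control, and without mixed cells 159 CPM in LPCAT3-AKO and 116 CPM in control.

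Much of the Gzma, Gzmb and Xcl1 signal of the T gate came from cells that also had a UMI of Klre1 or Ncr1. These were 25 of 200 T-gated cells in LPCAT3-AKO and 18 of 142 in control. They held 58.5% of the Gzma UMIs of the gate in LPCAT3-AKO and 89.0% in control, of the Gzmb UMIs 78.0% in LPCAT3-AKO and 59.0% in control, and of the Xcl1 UMIs 77.7% in LPCAT3-AKO and 50.9% in control. Of the Prf1 UMIs they held 52.2% in LPCAT3-AKO and 86.4% in control, but of the Nkg7 UMIs only 40.4% in LPCAT3-AKO and 33.2% in control. Gzma had 198 CPM in these cells of LPCAT3-AKO (24 UMIs in 7 cells) and 7168 CPM in those of control (670 UMIs in 8 cells). One of these control cells held 288 of the 670 UMIs. Ccl5 had 3916 CPM in LPCAT3-AKO and 8623 CPM in control there, and Xcl1 661 CPM in LPCAT3-AKO and 300 CPM in control. Whether these are T cells with killer receptors or droplets that held a T cell and an NK cell was not tested. Their median was 3481 UMIs in LPCAT3-AKO and 3132 in control, against 3360 in LPCAT3-AKO and 3339 in control in the other T-gated cells.

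The other T-gated cells, 175 in LPCAT3-AKO and 124 in control, also differed over all their cells. Of these, 38 in LPCAT3-AKO and 22 in control were mixed, and their UMIs count in the CPM below. How far the differences hold without mixed cells was not tested for this subset. Ccl5 had 628 CPM in LPCAT3-AKO and 1913 CPM in control, Nkg7 176 CPM in LPCAT3-AKO and 463 CPM in control, Ifng 16.3 CPM in LPCAT3-AKO and 90.8 CPM in control, and Gzmb 7.72 CPM in LPCAT3-AKO and 67.3 CPM in control. Gzma had 17 UMIs in LPCAT3-AKO, 16 of them in 1 cell, and 83 UMIs in control.

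**Figure D5:**
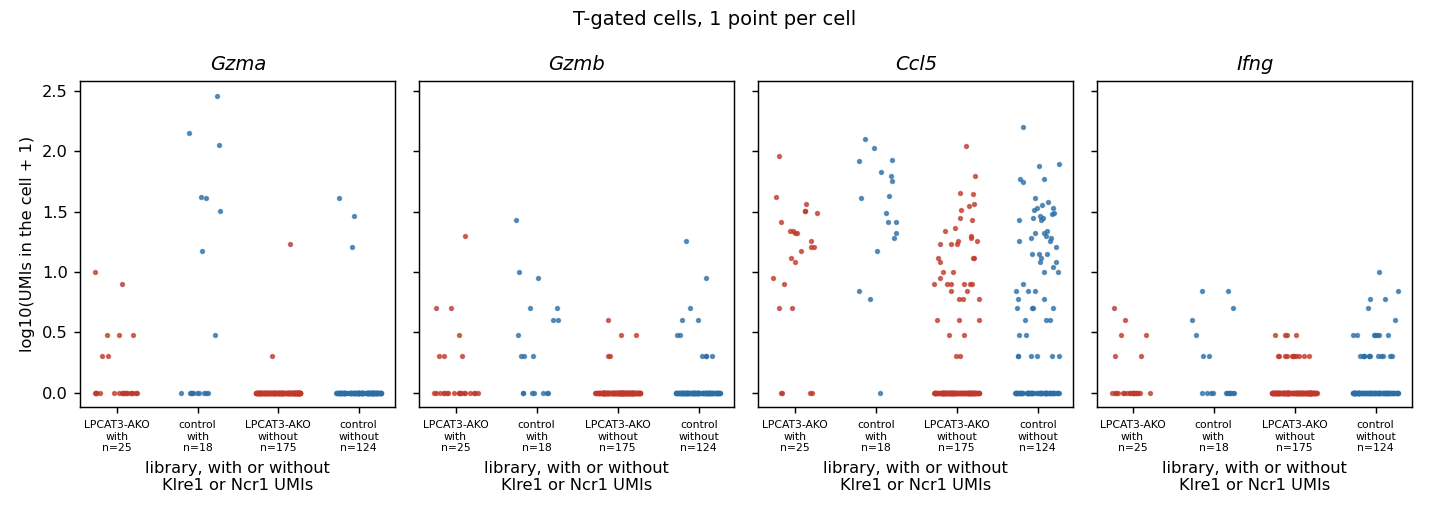
UMIs of Gzma, Gzmb, Ccl5 and Ifng in each T-gated cell, as log10(UMIs + 1), split by whether the cell had a UMI of Klre1 or Ncr1, with LPCAT3-AKO in red to the left of control in blue within each pair. The highest Gzma points are control cells with Klre1 or Ncr1, up to 288 UMIs; the horizontal spread within a column has no meaning.

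The T cell subsets bore the members unequally, in values that include mixed cells. Mixed were 9 LPCAT3-AKO and 5 control cells of the Cd8 subset below, and 6 LPCAT3-AKO and 4 control cells of the Cd4 subset. In the subset without Cd8a, Cd8b1, Cd4 or Trdc they were 23 in LPCAT3-AKO and 11 in control. Cells with Cd8a or Cd8b1 and no Cd4, 54 in LPCAT3-AKO and 30 in control, had Ccl5 at 1055 CPM in LPCAT3-AKO and 4003 CPM in control and Nkg7 at 410 CPM in LPCAT3-AKO and 536 CPM in control. Cells with Cd4 and no Cd8 gene, 38 in LPCAT3-AKO and 32 in control, had Ccl5 at 643 CPM in LPCAT3-AKO and 2041 CPM in control and Ifng at 34.5 CPM in LPCAT3-AKO and 206 CPM in control. About as many as the other subsets together, 94 of 200 in LPCAT3-AKO and 70 of 142 in control, had no UMI of Cd8a, Cd8b1, Cd4 or Trdc, and these held most of the Gzma of the control gate (1517 CPM, against 33.6 CPM in LPCAT3-AKO). Few cells carried it: of the 753 Gzma UMIs of the control gate, 1 such cell held 288 and another 113.

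At 2000 UMIs per cell, LPCAT3-AKO NK-gated cells had a median of 4 of the 10 members and control ones 5, while the unthinned median was 5 in LPCAT3-AKO and 5 in control. No member was seen in 20.3% of LPCAT3-AKO and 25.9% of control NK-gated cells, which unthinned was 15.2% in LPCAT3-AKO and 22.0% in control. In T-gated cells no member was seen in 54.5% of LPCAT3-AKO and 34.1% of control cells, which unthinned was 41.0% in LPCAT3-AKO and 31.0% in control.

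The receptors of these signals were read across cell types. Xcr1, the XCL1 receptor, was found in dendritic-like cells, at 141 CPM in LPCAT3-AKO and 126 CPM in control, and had 12.7 CPM (7 UMIs) in NK-gated cells of LPCAT3-AKO against 0 in those of control. Ccr1, a receptor of CCL5, was highest of the 12 types in macrophage/monocyte-like cells (238 CPM in LPCAT3-AKO, 269 CPM in control). Ccr3 stayed at or below 3.11 CPM in the gates and in ILC2-like, dendritic-like, macrophage/monocyte-like, ASPC-like and vascular endothelial-like cells of both libraries. Ifngr1, the ligand-binding chain of the interferon-gamma receptor, was widespread, with 457 CPM (LPCAT3-AKO) and 458 CPM (control) in NK-gated cells and 210 CPM (LPCAT3-AKO) and 192 CPM (control) in ASPC-like cells. Ifngr2 had 53.8 CPM (LPCAT3-AKO) and 49.2 CPM (control) in ASPC-like cells. None of the receptor genes named here passed the size rule in either gate over all its cells. Without mixed cells Xcr1 passed in NK-gated cells, on 7 UMIs in LPCAT3-AKO and 0 in control.

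Among other genes of killing and granule traffic, some were higher in LPCAT3-AKO NK-gated cells and some lower in LPCAT3-AKO T-gated cells. For this list and those below, the shares over all genes tested in NK-gated cells were 5.47% higher and 9.17% lower. In T-gated cells they were 8.54% higher and 6.55% lower. Without mixed cells they were 3.39% higher and 3.58% lower in NK-gated cells, and 3.58% higher and 5.02% lower in T-gated cells. Of 20 listed genes, 12 had 20 CPM or more in NK-gated cells, with 3 higher and 0 lower in LPCAT3-AKO and a median log2 ratio of 0.33. The higher ones were Ctsc (340 CPM in LPCAT3-AKO, 202 CPM in control), the protease that activates granzymes, Unc13d (25.5 CPM in LPCAT3-AKO and 7.07 CPM in control), which primes granules for fusion, and Gzme (11 UMIs in LPCAT3-AKO, all in the cell with the most Gzmc, and 0 in control). Ctsc did not pass without mixed cells (161 CPM in LPCAT3-AKO and 115 CPM in control). In T-gated cells 4 of 11 were lower and 0 higher, with a median log2 ratio of -0.38. They were Serpinb6b (83.2 CPM in LPCAT3-AKO, 176 CPM in control) and Serpinb9 (63.7 CPM in LPCAT3-AKO and 128 CPM in control), which protect the killer cell from its own proteases, Fasl (30.3 CPM in LPCAT3-AKO and 69.6 CPM in control), the death ligand, and Rab27a (12.4 CPM in LPCAT3-AKO and 30.0 CPM in control), which docks granules. Without mixed cells 2 of 13 were lower and 0 higher, Fasl and Unc13d (4 UMIs in LPCAT3-AKO, 13 in control), with a median log2 ratio of -0.26, and Serpinb9, Serpinb6b and Rab27a did not pass.

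Of the 21 NK receptor and adaptor genes, 19 were measured at that level in NK-gated cells, with 1 higher (Cd226, 140 CPM in LPCAT3-AKO and 91.9 CPM in control), 1 lower (Klra4, 138 CPM in LPCAT3-AKO and 254 CPM in control) and a median log2 ratio of -0.09. Klra4 encodes a Ly49 receptor, one of a family of near copies. Without mixed cells Klra4 stayed lower (259 CPM in LPCAT3-AKO and 632 CPM in control) and Cd226 did not pass (201 CPM in LPCAT3-AKO and 222 CPM in control). In T-gated cells 7 of 13 were lower and 0 higher, with a median log2 ratio of -0.69. The 4 most abundant were the adaptor Hcst (272 CPM in LPCAT3-AKO, 441 CPM in control), the activating receptor Cd226 (114 CPM in LPCAT3-AKO and 175 CPM in control), the IL-18 receptor chain Il18r1 (54.4 CPM in LPCAT3-AKO and 90.1 CPM in control) and Slamf7 (24.1 CPM in LPCAT3-AKO and 81.9 CPM in control). Without mixed cells 3 of 16 were lower, among them Slamf7 and Il18r1.

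Of 12 regulator genes, 10 were measured in NK-gated cells, with 1 lower, Klf2 (196 CPM in LPCAT3-AKO, 588 CPM in control), a factor of lymphocyte recirculation that endothelial cells also express, and a median log2 ratio of -0.08. Summed vascular endothelial markers in NK-gated cells were 23.7 CPM in LPCAT3-AKO and 495 CPM in control, and without mixed cells Klf2 had 138 CPM in LPCAT3-AKO and 192 CPM in control and did not pass. In T-gated cells 2 of 10 were lower, Id2 (133 CPM in LPCAT3-AKO, 239 CPM in control) and Bhlhe40 (111 CPM in LPCAT3-AKO and 197 CPM in control), with a median of -0.14. Without mixed cells both still passed, Zeb2 was also lower (124 CPM in LPCAT3-AKO, 199 CPM in control), Ikzf2, which encodes the factor HELIOS, was higher (319 CPM in LPCAT3-AKO, 190.5 CPM in control), and the median log2 ratio over 11 genes was -0.47.

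Of 9 other cytokine and chemokine genes, 4 were measured in NK-gated cells. Tnf was higher (126 CPM in LPCAT3-AKO, 33.9 CPM in control), and the chemokine genes Ccl4 (384 CPM in LPCAT3-AKO and 616 CPM in control) and Ccl3 (63.7 CPM in LPCAT3-AKO and 131 CPM in control) were lower, with a median log2 ratio of -0.08 over the 4. Without mixed cells Tnf had 40.1 CPM in LPCAT3-AKO and 48.0 CPM in control and did not pass, while Ccl3 and Ccl4 stayed lower. In T-gated cells 5 were measured, with Ccl3 (17.1 CPM in LPCAT3-AKO, 38.2 CPM in control) and Tnf (59.1 CPM in LPCAT3-AKO and 95.6 CPM in control) lower, Il10 higher (21.0 CPM in LPCAT3-AKO and 6.83 CPM in control) and a median log2 ratio of -0.29. All 27 LPCAT3-AKO Il10 UMIs lay in mixed cells. Without mixed cells 5 of 6 were lower and 0 higher, with a median log2 ratio of -1.44. They were Ccl3, Ccl4 (126 CPM in LPCAT3-AKO, 208 CPM in control), Tnf (49.6 CPM in LPCAT3-AKO, 103 CPM in control), Csf2 (0 UMIs in LPCAT3-AKO, 14 in control) and Il2 (3 UMIs in LPCAT3-AKO, 10 in control).

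Of 10 genes that separate NK cells from tissue-resident innate lymphocytes, 7 were measured in NK-gated cells, with a median log2 ratio of 0.23, and Il7r was higher (56.4 CPM in LPCAT3-AKO, 17.0 CPM in control). Without mixed cells Il7r did not pass (80.2 CPM in LPCAT3-AKO and 44.3 CPM in control) and Itga1 was higher (75.8 CPM from 17 UMIs in LPCAT3-AKO and 7.39 CPM from 2 UMIs in control). In T-gated cells 1 of 8, the nuclear receptor gene Rora, was lower (151 CPM in LPCAT3-AKO, 258 CPM in control). S1pr1, the receptor for exit from tissue, was lower in NK-gated cells (4 UMIs in LPCAT3-AKO, 32 in control) and did not pass in T-gated cells. Without mixed cells S1pr1 had 0 UMIs in LPCAT3-AKO and 10 in control NK-gated cells.

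Over the 12 cell types and both libraries, 24 points that share library and depth, the genes whose log2(CPM + 1) followed the mean of the 10 members most closely were Samd3 (Pearson r = 0.988), Klrc2 (0.988), Klrc1 (0.987), Ctsw (0.982) and Klrb1c (0.976). Ctsw encodes a cathepsin of cytotoxic cells, and the Klr genes encode NK receptors. Most of the 24 points lie near 0 CPM, so the values describe the contrast of lymphocytes with all other types.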

How the data were processed

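The authors deposited raw UMI counts per gene and barcode, whole numbers without normalization, 1 matrix per library. Per the submitters' processing notes, mm10 was the build, and Cell Ranger 6.1.2 and Seurat 4.10 were used. The annotation release is not given in the sources used here. Barcodes with 500 or more genes and at most 10% mitochondrial UMIs were kept (11664 LPCAT3-AKO, 12426 control). Doublets were scored with Scrublet in scanpy 1.11.5, and the highest-scoring cells removed at 0.8% per 1000 cells (1088 LPCAT3-AKO, 1235 control). Scrublet's own threshold called 598 LPCAT3-AKO and 589 control cells. Counts were summed over gated cells per library and divided by the summed total. No test was possible with 1 library per group. CPM carry exact Poisson intervals, shares exact Clopper-Pearson intervals, and ratios exact binomial intervals, all for counting error only, computed with scipy 1.17.1.

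The genes and lists were chosen with earlier results of these data known. Named were all 10 members, in each list up to 4 genes that passed the size rule, taken by CPM, the receptors, and the 5 genes most alike in pattern. Itga1, Gzme, Mki67, Tbx21 and Gzmc outside the gates, genes named only for their calls without mixed cells, the contents of single cells, and the subsets by receptor or Gzma were chosen after values were seen. The other cell types were named "-like" by markers per cell (5 of 6 for ASPC and macrophage/monocyte, 3 to 4 markers for the rest), and a gated cell counted as mixed at 5 of 6 ASPC or macrophage markers or 4 of another non-lymphoid type. These numbers of markers were set after the matrices were seen. Thinning drew 2000 UMIs per cell and left out shallower cells (5 LPCAT3-AKO and 15 control NK-gated cells, 13 LPCAT3-AKO and 10 control T-gated cells). For the shares of cells with a UMI, and for counts of members or pairs per cell, each gene was drawn once on its own. For the log2 ratios and calls in thinned cells, all genes of a cell were drawn together in a separate draw. Some listed genes are not reported here. No sequences are given.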

Additional observations from a re-analysis of the deposited data

How the results depend on the processing

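No member that passed the size rule changed direction in any of the 9 alternatives run for each (doublet removal, cell filter, gate, mixed cells, thinning, per-cell mean, median of ratios, pseudocount, highest cell), and the call was kept in 79 of 90 member results in NK-gated cells and 82 of 90 in T-gated cells. The pseudocount does not enter the size rule and cannot turn a direction, so its calls were kept by construction. The median of ratios could change little, with a shift of -0.01 log2 in each gate. A result that did not pass in either setting also counted as kept. The count of members past the size rule in NK-gated cells was 4, but 7 in the stricter gate, 2 with cells thinned to 2000 UMIs and 2 without the cell with the most UMIs of each gene. In T-gated cells it was 6, and 5 to 6 under the alternatives. With thinning, Eomes and Ifng in NK-gated cells and Nkg7 in T-gated cells no longer passed. Ifng in NK-gated cells also lost its call in the stricter gate and with the median of ratios, and Nkg7 in T-gated cells with the mean of per-cell CPM. Xcl1 in T-gated cells, which did not pass, had a log2 ratio of 0.09 over all cells and was lower in the stricter gate, at -1.12. Of all genes, 1070 passed in NK-gated cells, against 457 without mixed cells, 356 with thinning, 651 with the mean of per-cell CPM and 668 at a minimum of 50 CPM. In T-gated cells 1005 passed, against 524, 415, 568 and 579 under the same settings in that order. The 50 CPM minimum tests fewer genes and thinning leaves fewer UMIs. For the rest the cause was not tested. No paired analysis was possible because each group has 1 library. The number of cells, 79 to 200 per gate and library, and the low UMI counts of genes such as Ifng and Tbx21 limit what can be told, and the spread between animals is unknown.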
